A study of Mus musculus with 9 samples.

Results

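The oxidative phosphorylation genes of the array were taken by symbol, as every probe whose gene symbol begins with Nduf, Uqcr, Atp5 or Cox followed by a digit from 4 to 8, or is Sdha, Sdhb, Sdhc or Sdhd. The rule found 79 probes for 64 genes, of 33012 probes in all, of which 17302 carry a symbol and name 15674 genes. It used no measured value. Complex I (NADH dehydrogenase) was represented by 25 genes, its assembly factor Ndufaf1 by 1 probe, complex II (succinate dehydrogenase) by 3 genes, complex III (cytochrome bc1) by 5, complex IV (cytochrome c oxidase) by 15 and the ATP synthase by 15. Ndufa4 was counted with complex IV, of which it is a subunit, and Cox7a2l, counted there by its symbol, is a factor that joins complexes III and IV and no subunit proper. No probe carried the symbol Sdha or Cox6a1.

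Oxidative phosphorylation makes most of the ATP of an aerobic cell. Complexes I and II pass electrons from NADH and succinate to ubiquinone, complex III passes them on to cytochrome c and complex IV to oxygen, and the ATP synthase uses the proton gradient that complexes I, III and IV build up. Absorptive enterocytes, which line the jejunal villi, are rich in mitochondria and spend ATP on the sodium pump that drives nutrient uptake, and most subunits of the chain are encoded in the nucleus, with a few in mitochondrial DNA.

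The samples were jejunal RNA of 9 male mice of the outbred stock OF1, 7 weeks old and of generation 3 of a feeding trial, with 1 mouse on each single-colour Applied Biosystems array. Feed B, feed K and feed G were given to 3 mice each, called here B7, B8 and B10, K1, K3 and K4, and G4, G8 and G11 by feed and mouse number. The sources used here give no genotype beyond the stock and do not say what a feed letter stands for, so that no feed was taken as a control, and the time of day at which mice were sampled is not on record. Values are log2 of the quantile-normalized signal intensity unless stated otherwise, and a gene counts as detected on an array if at least 1 of its probes reached 3 times the noise there.

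The arrays differed in sensitivity. Between 34.1% (B8) and 49.4% (G8) of probes were detected per array, with 34.1% to 44.4% in feed B, 41.9% to 49.1% in feed K and 47.5% to 49.4% in feed G. The 7 enterocyte markers with a probe (of 10) were detected on all 9 arrays, as the tissue label asks for, and their summed level was 20.89 to 21.62 in feed B, 21.33 to 21.62 in feed K and 21.25 to 21.36 in feed G. The ileal markers Fabp6 and Slc10a2 differed widely between mice, with a summed level from 7.81 (B8) to 17.86 (B10) in feed B, from 9.30 to 12.30 in feed K and from 8.52 to 19.52 (G11) in feed G. No probe carried the symbol of any of the 13 subunits encoded in mitochondrial DNA that were asked for.

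Promoter sequences were given for 52 of the 64 genes (57 promoters, RefSeq, build GRCm38.p6, 250 bases before to 50 bases after the start). They were searched on both strands for letters that the factors known to control these genes bind: the NRF1 palindrome and its inner part GCATGCGC, CCGGAAG for ETS factors such as GABPA, and AAGATGGC for YY1. GCATGCGC was found in 8 of the 57 promoters (14.04%), against 2.71% of all 32851 promoters, and the full palindrome in 3 (5.26%, against 0.971%). CCGGAAG was found in 13 promoters (22.8%, against 8.86%) and AAGATGGC in 9 (15.8%, against 2.75%). Altogether 25 promoters held at least 1 of them, or 43.9% against 13.3% of all promoters. By complex these were 10 of 23 promoters of complex I, 2 of 2 of complex II, 2 of 3 of complex III, 2 of 11 of complex IV and 8 of 17 of the ATP synthase, beside that of Ndufaf1. These are matches of letters and no measured binding, and a promoter without a match only lacks these letters in this window.

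Printed below are 6 promoters, chosen to show each motif and each complex beside genes to which the results return, with the matches in capitals. Ndufa8 had the smallest spread over mice and Atp5k the largest among genes detected on every array, Cox8a is 1 of the genes whose feeds did not overlap, Sdhb belongs to complex II, the probes of Uqcr disagreed most after those of Cox5b, and Atp5f1 shows the YY1 letters.
Ndufa8, chr2:36049289-36049588, minus strand: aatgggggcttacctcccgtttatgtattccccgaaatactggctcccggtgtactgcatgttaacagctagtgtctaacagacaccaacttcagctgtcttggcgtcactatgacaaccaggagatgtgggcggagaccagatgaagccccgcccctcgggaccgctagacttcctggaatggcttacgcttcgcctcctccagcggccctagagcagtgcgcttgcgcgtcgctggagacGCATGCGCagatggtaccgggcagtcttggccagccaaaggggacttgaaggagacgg
Sdhb, chr4:140961021-140961320, plus strand: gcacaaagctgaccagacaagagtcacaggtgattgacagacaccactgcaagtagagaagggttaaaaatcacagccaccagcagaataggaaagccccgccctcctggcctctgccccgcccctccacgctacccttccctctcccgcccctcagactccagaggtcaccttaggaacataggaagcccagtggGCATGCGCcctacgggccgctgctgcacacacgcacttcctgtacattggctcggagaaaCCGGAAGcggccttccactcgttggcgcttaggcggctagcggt
Uqcr, chr10:80406772-80407071, minus strand: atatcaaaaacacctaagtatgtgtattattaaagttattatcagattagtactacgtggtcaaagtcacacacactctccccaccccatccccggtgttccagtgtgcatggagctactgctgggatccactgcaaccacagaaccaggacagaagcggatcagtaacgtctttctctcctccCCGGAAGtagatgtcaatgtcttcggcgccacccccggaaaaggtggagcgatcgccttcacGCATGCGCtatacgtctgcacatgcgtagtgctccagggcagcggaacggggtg
Cox8a, chr19:7217567-7217866, minus strand: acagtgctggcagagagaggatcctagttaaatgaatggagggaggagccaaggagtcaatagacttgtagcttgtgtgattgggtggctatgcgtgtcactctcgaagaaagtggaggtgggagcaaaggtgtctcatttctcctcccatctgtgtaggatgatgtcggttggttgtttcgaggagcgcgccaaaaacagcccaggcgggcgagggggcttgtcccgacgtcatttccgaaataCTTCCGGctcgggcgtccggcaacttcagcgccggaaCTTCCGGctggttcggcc
Atp5f1, chr3:105959214-105959513, minus strand: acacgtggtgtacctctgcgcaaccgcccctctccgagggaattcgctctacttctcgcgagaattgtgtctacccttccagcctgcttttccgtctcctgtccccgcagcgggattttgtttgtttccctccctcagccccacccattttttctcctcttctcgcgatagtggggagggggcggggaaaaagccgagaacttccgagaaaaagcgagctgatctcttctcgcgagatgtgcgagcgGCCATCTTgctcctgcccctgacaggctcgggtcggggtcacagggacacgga
Atp5k, chr5:108434350-108434649, minus strand: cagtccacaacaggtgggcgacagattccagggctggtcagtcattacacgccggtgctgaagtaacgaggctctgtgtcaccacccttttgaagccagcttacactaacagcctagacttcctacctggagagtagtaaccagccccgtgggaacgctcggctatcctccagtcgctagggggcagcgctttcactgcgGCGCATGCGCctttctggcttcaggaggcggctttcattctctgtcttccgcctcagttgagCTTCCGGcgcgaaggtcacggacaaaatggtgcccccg
GCATGCGC begins 8 bases before the start in Ndufa8, 54 before it in Sdhb and 4 before it in Uqcr, where CCGGAAG begins 66 bases before the start. In Atp5k the full NRF1 palindrome, which contains the shorter form on both strands, begins 50 bases before the start. The ETS letters stand on the opposite strand in Atp5k and in Cox8a, which holds them at 2 places, and the YY1 letters on the opposite strand in Atp5f1, 3 bases before the start.

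Detection was the first measure. On all 9 arrays 53 of the 64 genes were above the limit (82.8%), compared with 5887 of all 15674 genes (37.6%). They were 22 of the 25 subunit genes of complex I, Ndufaf1, all 3 of complex II, 4 of 5 of complex III, 9 of 15 of complex IV and 14 of 15 of the ATP synthase. Complex IV had the lowest share. Of its undetected or weak genes, Cox4i2, Cox6a2 and Cox8b encode isoforms known from other tissues. The others were Cox6c and Cox7a2, which are known from most tissues, and Ndufa4.

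**Figure D1:**
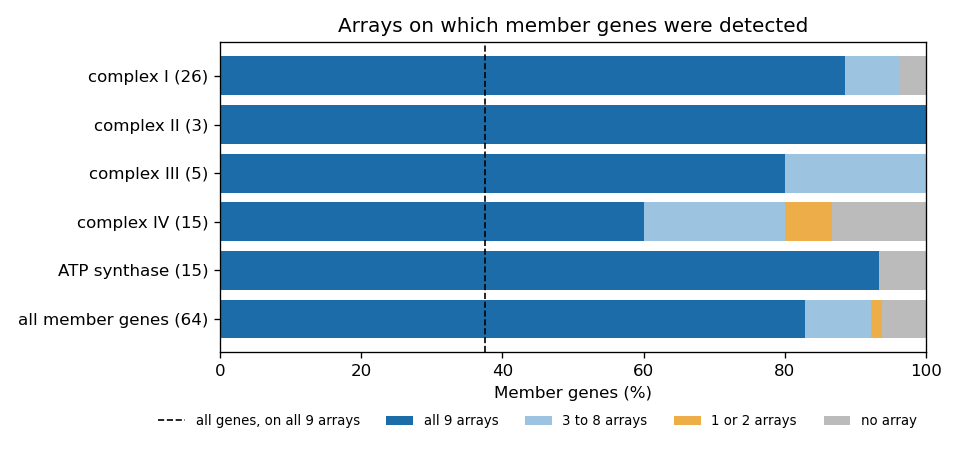
Share of member genes (x axis, %) detected on all 9 arrays, on 3 to 8, on 1 or 2 and on none, by complex (y axis, number of genes in parentheses, complex I with Ndufaf1). The dashed line marks the 37.6% of all genes that were detected on all 9 arrays, and every complex lies to the right of it, with complex IV nearest at 9 of 15 genes.

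Of the isoform pairs of complex IV, Cox4i1, the form found in most tissues, was detected on all 9 arrays, and Cox4i2, known from lung and from low oxygen, on 4, with both feeds B and K at 1 array and feed G at 2. Cox8a, the general form, was on all 9 arrays and Cox8b, a form of muscle and brown fat, on 7. Cox6a2, a form of heart and skeletal muscle, was detected on 2 arrays, 1 of feed K and 1 of feed G. Its measured mean was 6.41 ± 0.64 (SD, n = 3) in feed B, where it was not above background, 6.80 ± 0.76 in feed K and 6.88 ± 1.05 in feed G. The means of feeds K and G each include 2 mice in which it was not detected, and it was not tested. Cox7a1, also known as the form of heart and muscle, was detected on every array, with 14.75, 15.43 and 14.40 in feed B, 14.88, 14.77 and 15.21 in feed K and 14.71, 14.36 and 15.07 in feed G. The feeds overlapped for it.

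Of the markers of striated muscle, Actn3, Myh7 and Tnnt3 were detected on no array and Ckm on 8, and the summed level of these 4 was 8.71 to 9.81 in feed B, 9.40 to 9.72 in feed K and 9.15 to 9.93 in feed G. All 6 smooth muscle markers were measured, 5 of them on all 9 arrays, with a summed level of 16.43 to 16.65 in feed B, 16.31 to 16.75 in feed K and 15.99 to 16.67 in feed G. Ucp1, which defines brown fat, was detected on no array, and Cidea, the other brown fat marker, on 5. Their summed level was 7.76 to 9.24 in feed B, 7.75 to 8.54 in feed K and 7.80 to 8.44 in feed G. The part of these cells in the signal of Cox7a1 and Cox8b was not tested, and in RNA of whole tissue fewer cells of a type and less RNA per cell cannot be told apart.

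Genes that were detected on no array were Ndufab1, the mitochondrial acyl carrier protein in complex I, Cox6c and Cox7a2 of complex IV, and Atp5j2, subunit f of the ATP synthase. Each has 1 probe, and none of the 4 probes carries a RefSeq accession in the array files. Of the 18 member probes without an accession 10 were detected on all 9 arrays (55.6%) and 4 on none, compared with 52 of 61 with an accession (85.2%) and 1 on none. Over all probes with a symbol the shares on all 9 arrays were 32.8% without and 36.8% with an accession. A signal below the limit on this probe is no measure that the transcript is absent, and Cox7a2 and Cox6c are the forms known from most tissues. Of the remaining genes, Ndufb2 was detected on 4 arrays, Ndufa4 and Ndufc1 on 3 and Uqcrc1, a core protein of complex III, on 5.

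The signal-to-noise ratio of the probes followed the arrays. The median over the 79 probes was 37.6, 27.0 and 60.5 for B7, B8 and B10, 41.8, 63.6 and 57.0 for K1, K3 and K4, and 75.8, 65.9 and 65.7 for G4, G8 and G11. All 3 mice of feed G lay above all others, B8 and B7 lay lowest, and B10 lay among the mice of feed K. Over all probes the median ran from 1.19 (B8) to 2.15 in feed B, from 1.98 to 2.84 in feed K and from 2.59 to 2.86 in feed G, with B8 lowest there too.

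By complex the median ratio on the 3 arrays of feed G lay above that of feed B throughout, and feed K overlapped with feed B for each complex. For complex I it was 26.7 to 60.8 in feed B, 42.9 to 59.7 in feed K and 63.4 to 71.5 in feed G, and for the ATP synthase 31.6 to 65.4, 47.7 to 81.0 and 75.2 to 94.5. Complex IV had 26.4 to 49.6 in feed B, 33.8 to 57.8 in feed K and 57.7 to 72.6 in feed G. For complex II the ranges were 36.1 to 62.6, 41.8 to 74.1 and 70.1 to 94.3, and for complex III 32.9 to 60.3, 47.7 to 64.8 and 67.1 to 79.6. Between 63 (B8) and 70 (K3 and G4) of the 79 probes were detected per array, 63 to 69 in feed B, 66 to 70 in feed K and 67 to 70 in feed G.

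The spread over mice was small. Among genes detected on all 9 arrays, the median SD over the 9 mice was 0.21 for the 53 member genes and 0.29 for all 5887 genes, and within feeds it was 0.22 and 0.28. In 48 of the 53 genes (90.6%) the highest mouse exceeded the lowest by no more than 2-fold, against 57.9% of all genes, with a median of 1.55-fold against 1.85-fold. Of the 53 genes, 43 had an SD below the median of all genes, 10 were among the 10% with the smallest SD and 0 among the 10% with the largest. By complex the median SD was 0.21 for complex I, 0.24 for complex II, 0.24 for complex III, 0.21 for complex IV and 0.22 for the ATP synthase. By feed, the median SD of the 53 genes within feed B was 0.24, within feed K 0.20 and within feed G 0.15, and that of all genes 0.30, 0.23 and 0.22.

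The member genes also gave brighter signals than most genes, with a median of 14.17 against 10.88, a value that depends on the probe as well as the transcript. In classes of signal chosen after the values were seen, the median SD of members and of all genes was 0.32 and 0.30 from 9 to 12, 0.20 and 0.24 from 12 to 14, 0.24 and 0.25 from 14 to 15, and 0.20 and 0.26 from 15 to 17. Within their class 38 of the 53 genes had an SD below the median of all genes, among them all 17 of the brightest class and 3 of 7 in the dimmest.

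**Figure D2:**
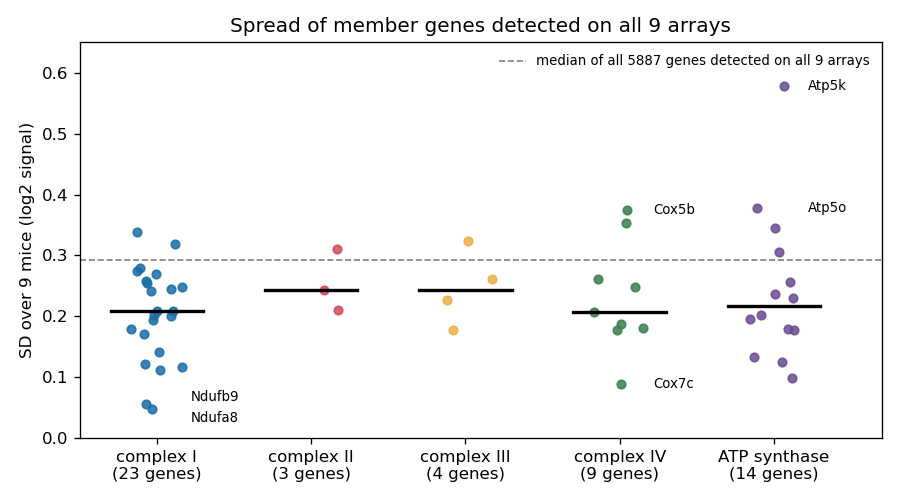
SD of the log2 signal over 9 mice (y axis) of the 53 member genes detected on all 9 arrays, by complex (x axis, complex I with Ndufaf1). Points are genes, black bars medians and the dashed line the median of all 5887 such genes, 0.29, and most points lie under it, with Ndufa8 and Ndufb9 lowest and Atp5k highest.

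The smallest spread belonged to Ndufa8, an accessory subunit of complex I, which read 14.49, 14.59 and 14.50 in B7, B8 and B10, 14.53, 14.49 and 14.50 in K1, K3 and K4, and 14.61, 14.47 and 14.50 in G4, G8 and G11. Its SD was 0.05 and its highest mouse was 1.10-fold above the lowest. For Ndufb9, another accessory subunit of complex I, the SD was 0.06 and the range 1.13-fold, and for Cox7c, a small subunit of complex IV with 2 probes, the SD was 0.09. For these 3 genes all 9 mice gave nearly the same signal on every feed after quantile normalization. Before it, the signal of Ndufa8 ran from 14042 in B7 to 33687 in K3.

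Atp5k, subunit e of the ATP synthase, had the largest spread, 4.53-fold from the lowest to the highest mouse with an SD of 0.58. It read 12.35, 10.84 and 10.99 in feed B, 10.17, 11.02 and 10.82 in feed K and 10.99, 10.69 and 10.88 in feed G, so that B7 stood above all other mice and K1 below them. Next came Atp5o, the subunit that ties the ATP synthase's stalk to its head, and Cox5b, a nuclear subunit of complex IV, each with an SD of 0.38.

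For Cox5b and Atp5o the spread lay in dim probes. Cox5b has 3 probes, of which 2 were detected on all 9 arrays with SDs of 0.13 and 0.16, while the remaining probe, detected on 1 array with a median signal-to-noise ratio of 0.76, had an SD of 1.21. That probe read 8.16, 8.95 and 5.13 in feed B, 6.22, 6.68 and 7.31 in feed K and 5.54, 6.28 and 6.48 in feed G. The bright probes were lowest in B7, at 15.18 and 15.66, where the dim probe was among its highest. The second probe of Atp5o was likewise detected on 1 array and had an SD of 0.61, against 0.17 for the probe detected on all 9. For Uqcr, a small subunit of complex III now named Uqcr11, the bright probe had an SD of 0.04, below that of any single-probe member gene, and the dim probe, detected on 7 arrays, 0.66.

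**Figure D3:**
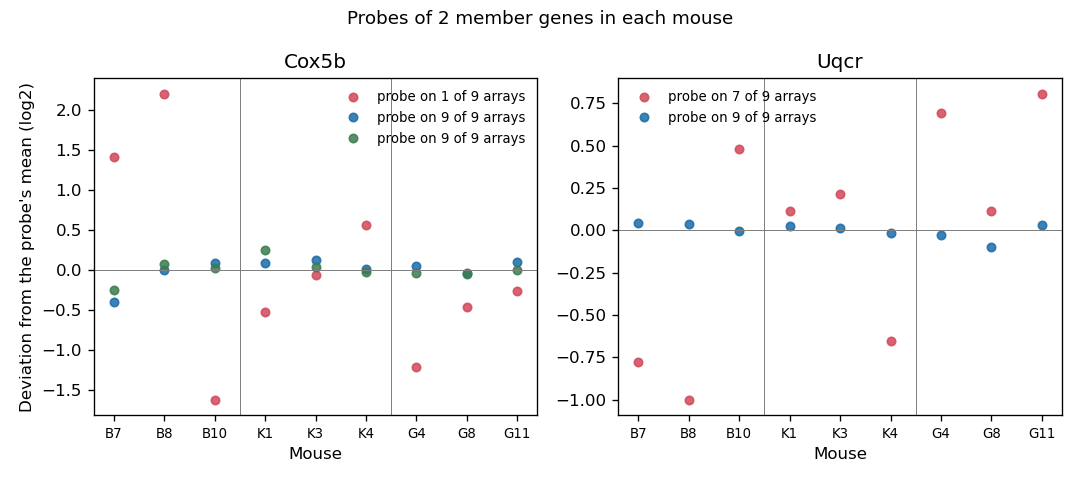
Deviation of each probe of Cox5b (left) and Uqcr (right) from its own mean over 9 mice (y axis, log2), by mouse (x axis, in order of feed). Points of the probes detected on all 9 arrays lie near 0, while the probe detected on 1 array (Cox5b) or 7 arrays (Uqcr) is scattered.

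Of the 13 genes with several probes, 7 had every probe detected on all 9 arrays. The closest agreement was that of Atp5j, coupling factor 6 of the ATP synthase, whose 2 probes had SDs of 0.10 and 0.12. With only probes detected on all 9 arrays averaged, the median SD of the 53 genes was 0.20, against 0.28 for all 5866 such genes, and Uqcr had the smallest value and Atp5k and Cox7a1 the largest. This choice of probes was made after the values were seen.

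Single mice stood apart. Of the 53 genes, 45 lay above their own mean of the 9 mice in B8, compared with 57.7% of all genes detected on every array, and 24 had their highest value in that mouse. In B10 11 were above their mean, in G8 6 and in G11 11, against 47.5%, 46.9% and 47.7% of all genes, and 38 genes had their lowest value in these 3 mice, 10, 12 and 16. In the other mice 23 genes were above their mean in B7, 42 in K1, 20 in K3, 34 in K4 and 33 in G4, beside 45.0%, 62.5%, 43.1%, 58.6% and 52.2% of all genes.

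These counts depended on the scaling. With median scaling 3, 4 and 9 of the 53 genes were above their mean in B7, B8 and B10, 50, 51 and 23 in K1, K3 and K4, and 46, 41 and 46 in G4, G8 and G11, so that feed B lay low and feed G high as a whole. Counted against the median deviation of all genes in the same mouse, 45 genes were above it in B8 by quantile normalization and 47 with median scaling, 12 and 9 in B10, 6 and 5 in G8, and 13 and 19 in G11. Relative to all genes, B8 was therefore high and B10 and G8 were low with both scalings. By count, G11 stood apart from K1 and K3 only by quantile normalization, which gave 31 and 26 there. With median scaling K1 was at 19 as well and K3 at 22.

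The size of these shifts was small. The median deviation of the 53 genes from their own means was 0.21 in B8, -0.13 in B10, -0.14 in G8 and -0.18 in G11, and between -0.05 and 0.11 in the others. Relative to the median of all genes detected on every array it was 0.14 in B8, -0.12 in B10, -0.12 in G8 and -0.16 in G11. With median scaling in place of quantile normalization these became 0.22, -0.17, -0.15 and -0.08, and with the deposited assay-normalized values 0.22, -0.16, -0.16 and -0.05. With the assay-normalized values K1 and K3, at -0.04 and -0.06, lay close to G11. B8 was the array with the fewest detected probes and the lowest ileal markers, and B10 and G11 had the highest ileal markers, but G8, at 10.00, did not. B7 came next after B10 and G11, at 15.83, and its median deviation relative to all genes was 0.02 by quantile normalization. The part of array sensitivity or of the ileal markers in these shifts was not tested.

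**Figure D4:**
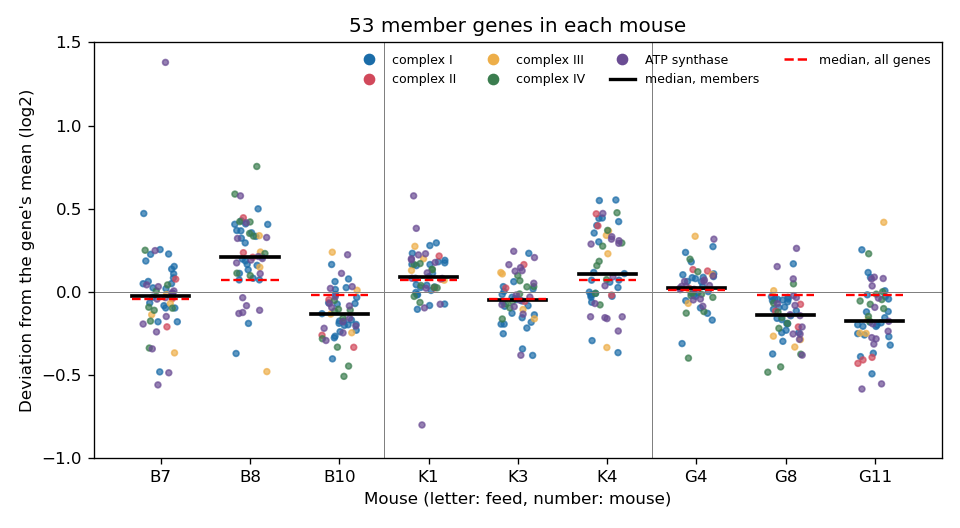
Deviation of 53 member genes from their own mean (y axis, log2) by quantile normalization in each of the 9 mice (x axis, by feed), coloured by complex (Ndufaf1 with complex I). Black bars are the members' medians and dashed red bars the medians of all 5887 genes detected on every array, and B8 lies above the others while B10, G8 and G11 lie below, with Atp5k in B7 as the highest point at 1.38.

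By quantile normalization the complexes leaned the same way in these mice. In B8 the genes above their mean were 20 of 22 of complex I, 3 of 3 of complex II, 3 of 4 of complex III, 9 of 9 of complex IV and 9 of 14 of the ATP synthase. In G8 they were 1 of 22, 0 of 3, 1 of 4, 1 of 9 and 3 of 14, and in B10 5 of 22, 0 of 3, 2 of 4, 0 of 9 and 4 of 14. The genes of 1 mouse share an array, so that these counts describe 1 sample each and are not independent.

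Feed was then tested with limma on all 9652 genes detected on at least 3 arrays, of which 59 are members. The pairs of feeds share samples, so that their results are not independent of each other. After Benjamini-Hochberg adjustment 0 of the 59 genes passed 0.05 for any difference among the feeds (F) or for any pair, and the smallest adjusted p of F was 0.903. At an unadjusted p below 0.05 there were also 0 of 59 by limma, against 5.37% of all genes for F, 6.31% between feeds K and B, 5.74% between G and B and 4.54% between G and K. An exact permutation test over all 280 ways to split the 9 mice into feeds, unadjusted, gave 2 of 59, Uqcrb and Ndufb4, against 5.09% of 9556 genes. The median standard error of a difference was 0.22 for the members and 0.32 for all genes.

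Other cells of the tissue were followed by summed markers. Those of B cells (4 of 4 measured) ran from 11.48 to 12.30 in feed B, from 9.31 to 12.23 in feed K and from 10.99 to 12.24 in feed G, and those of T cells (3 of 4) from 7.88 to 10.39, 9.37 to 11.82 and 8.80 to 10.96. Those of adipocytes (4 of 5) ran from 12.06 to 14.63, 13.31 to 13.73 and 12.83 to 13.34, and of red cells (2 of 3) from 11.77 to 13.59, 10.97 to 11.91 and 10.62 to 12.75. The feeds overlapped for each list, and their part in the differences of the subunit genes was not tested.

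Feed K was close to feed B. The median difference of the 59 genes was 0.07, against 0.05 for all genes tested, and 38 of 59 were higher in feed K, against a background of 56.9%. By complex the median was -0.01 for complex I (11 of 24 higher), 0.13 for complex II (3 of 3), 0.15 for complex III (5 of 5), 0.05 for complex IV (9 of 12) and 0.11 for the ATP synthase (10 of 14). The direction rested on single mice, with 45 of 59 higher without B8 and 28 of 58 without B10. With median scaling 55 of 59 were higher, beside 83.3% of all genes, and with the deposited assay-normalized values 51 of 59, beside 71.8%.

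Of single genes Uqcrc1 had the smallest p, with 6.40, 7.24 and 7.91 in feed B and 8.11, 8.34 and 7.60 in feed K, a difference of 0.83 ± 0.42 (SE, adjusted p = 0.798 by limma), on a probe detected on 1 array of feed B and all 3 of feed K. Cox8a, the general form of subunit 8 of complex IV, was the 1 gene of the 59 whose feeds did not overlap with feed K higher, against 6.25% of all genes. It read 14.76, 15.20 and 15.00 in feed B and 15.23, 15.20 and 15.37 in feed K, a difference of 0.28 ± 0.18 (adjusted p = 0.840 by limma), and B8 and K3 are equal once rounded. On its brighter probe alone the feeds overlapped, with B8 at 15.90 above K1 at 15.78 and K3 at 15.66. Atp5d, the delta subunit in the stalk of the ATP synthase, differed by 0.36 ± 0.25 (adjusted p = 0.851).

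In the other direction Atp5k differed by -0.72 ± 0.41 (adjusted p = 0.823), with B7 high and K1 low, Ndufb4 by -0.23 ± 0.17 (adjusted p = 0.869) and Ndufaf1 by -0.27 ± 0.23 (adjusted p = 0.882), but by 0.18 and 0.15 with median scaling. No gene was lower in every mouse of feed K than in every mouse of feed B, against 3.7% of all genes. Ndufa4 was not above background on any array of feed B, with 4.76, 6.40 and 6.20 there, and was detected on 1 array of feed K, at 8.31 in K4. The other mice of feed K, at 6.41 and 6.01, were not above background either. In feed G it read 7.39, 6.79 and 6.89, with 2 of the 3 detected, and the adjusted p by limma was 0.826 for feed K and 0.876 for feed G against feed B.

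Feed G was mostly lower than feed B, within the error. The median difference was -0.12 for the 59 genes and 0.06 for all genes, and 41 of 59 were lower in feed G, against a background of 42.9%. By complex the median was -0.15 for complex I (18 of 24 lower), -0.10 for complex II (3 of 3), -0.13 for complex III (3 of 5), -0.10 for complex IV (7 of 12) and -0.08 for the ATP synthase (9 of 14). The sign depended on the scaling. With median scaling 56 of 59 genes were higher in feed G, beside 88.3% of all genes, whose median was then 0.53, and with the deposited assay-normalized values 49 of 59, beside 78.8%. Relative to the median of all genes tested, the members' median was -0.18, -0.14 and -0.13 with the 3 scalings, and without B8 it was -0.06 by quantile normalization.

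Ndufb4, an accessory subunit in the membrane arm of complex I, had the smallest p of this pair. It read 13.92, 14.10 and 13.66 in feed B, 13.73, 13.63 and 13.63 in feed K and 13.52, 13.55 and 13.48 in feed G, and the difference of feed G from feed B was -0.37 ± 0.17 (adjusted p = 0.858 by limma). All 3 mice of feed G lay below all mice of feeds B and K by quantile normalization, while with median scaling the difference from feed B was 0.16, the other way. Ndufa5, an accessory subunit of the matrix arm, read 14.07, 14.39 and 13.99 in feed B and 13.94, 13.77 and 13.47 in feed G, without overlap, and differed by -0.42 ± 0.21 (adjusted p = 0.871), but by 0.12 with median scaling. With Uqcrb these were the 3 genes of 59 that were lower in every mouse of feed G, against 4.63% of all genes.

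Atp5b, the catalytic beta subunit of the ATP synthase, was higher in every mouse of feed G, with 16.19, 16.34 and 16.31 in feed B and 16.44, 16.53 and 16.46 in feed G, a difference of 0.20 ± 0.16 (adjusted p = 0.897 by limma). With Ndufa4 it made 2 of 59 genes without overlap in that direction, against 6.3% of all genes. Uqcr differed by 0.46 ± 0.25 (adjusted p = 0.879), but by -0.06 on its brighter probe alone, and Ndufs8, an iron-sulfur subunit of complex I, by 0.29 ± 0.22 (adjusted p = 0.894). Ndufc1 was above background in 2 mice of feed B and in none of feed G. It read 7.66, 6.11 and 7.35 in feed B and 5.24, 5.32 and 6.71 in feed G (adjusted p = 0.879), and B8, in which it was not detected, lay below G11.

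Feed G was also mostly lower than feed K. The median difference was -0.17, against -0.01 for all genes, and 46 of 59 genes were lower, against a background of 50.9%. By complex the median was -0.12 for complex I (19 of 24 lower), -0.30 for complex II (3 of 3), -0.31 for complex III (4 of 5), -0.23 for complex IV (8 of 12) and -0.20 for the ATP synthase (11 of 14). With median scaling 29 of 59 were higher, beside 63.9% of all genes, and with the assay-normalized values 27 of 59, beside 58.2%. With median scaling the median relative to all genes tested was -0.12, against -0.17 by quantile normalization.

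Bright genes in general leaned the same way. In the class of signal from 15 to 17 the median difference of feed G from feed K was -0.25 for 17 members and -0.20 for all 171 genes, and from 14 to 15 it was -0.24 and -0.13. From 12 to 14 it was -0.10 for 19 members and -0.05 for 1233 genes. Between feeds G and B the classes gave -0.14 and -0.04, -0.14 and -0.08, and -0.09 and -0.03, members first. The 7 members of the dimmest class, from 9 to 12, had -0.29 between feeds G and B and -0.05 between G and K, against 0.01 and -0.02 for all 3756 genes.

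Uqcrb, a subunit of complex III near the ubiquinone site, had the smallest p, with 16.19, 16.17 and 16.29 in feed K and 15.99, 15.77 and 15.81 in feed G, beside 16.04, 16.21 and 16.07 in feed B. The difference of feed G from feed K was -0.36 ± 0.16 (adjusted p = 0.960 by limma), and the exact permutation p for the effect of feed was 0.0107, unadjusted. Here feed G lay below both other feeds in every mouse by quantile normalization, but its difference from feed B was 0.30 with median scaling and 0.046 with the assay-normalized values. Cox5a, which carries a regulatory site of complex IV, differed by -0.40 ± 0.22 (adjusted p = 0.960) and Ndufs5, an accessory subunit of complex I, by -0.39 ± 0.23. The Ndufs5 value averages a probe detected on all 9 arrays and 1 detected on none. The first read 14.11, 14.01 and 14.18 in feed K and 13.97, 13.83 and 13.93 in feed G. The second read 5.79, 5.81 and 6.86 in feed K and 5.34, 6.02 and 5.37 in feed G.

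In all 7 of 59 genes were lower in every mouse of feed G than in every mouse of feed K, against 7.34% of all genes, namely Uqcrb, Ndufb4, Ndufb9, Cox4i1, Cox7c, Cox8a and Atp5g3, and 0 were higher, against 6.28%. Their differences ran from -0.36 for Uqcrb to -0.05 for Ndufb9. For Cox8a and Cox7c the feeds were apart in the average of the probes but not on each probe. On the dimmer probe of Cox8a, G11 at 14.66 lay above K4 at 14.62. On the brighter probe of Cox7c, G4 at 16.35 lay above K1 at 16.34. Of the genes with the smallest p in the higher direction, Uqcr differed by 0.30 ± 0.25 (-0.039 on its brighter probe alone), Ndufs8 by 0.19 ± 0.22, Cox4i2 by 0.72 ± 0.70 and Ndufb2 by 0.45 ± 0.75, the last 2 on probes detected on 4 arrays.

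**Figure D5:**
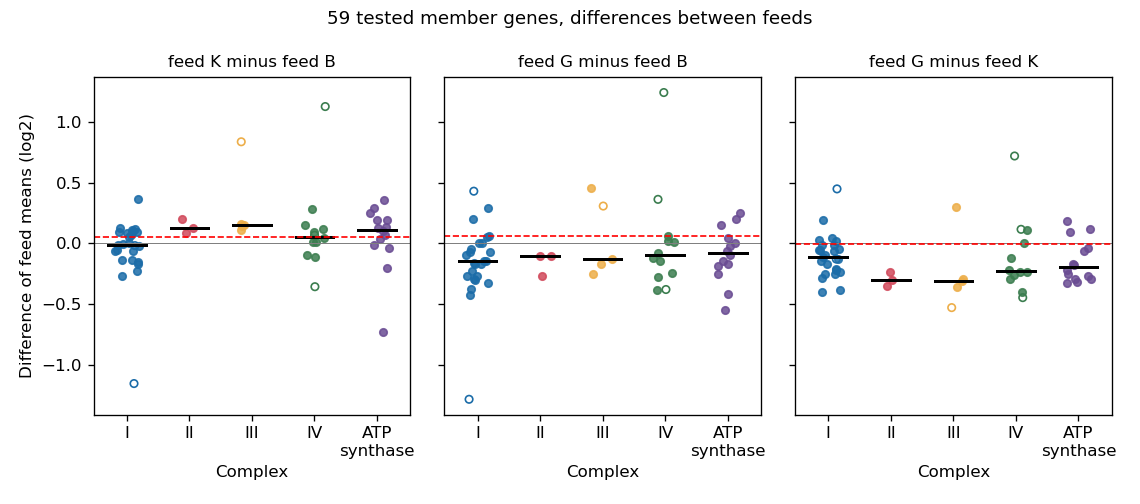
Differences between the means of 2 feeds (y axis, log2, by quantile normalization) for the 59 tested member genes, by complex (x axis, complex I with Ndufaf1), with 1 panel for each pair. Filled points were detected on all 9 arrays and open ones on fewer, black bars are medians by complex and the dashed red line the median of all 9652 genes tested, and the bars lie below that line in both comparisons with feed G.

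Complex II is the smallest group, with 3 measured genes. Sdhb, the iron-sulfur subunit, read 16.51, 16.95 and 16.67 in feed B, 16.93, 16.88 and 16.70 in feed K and 16.85, 16.64 and 16.32 in feed G. Sdhc and Sdhd, which anchor the complex in the membrane, differed between feeds G and K by -0.35 ± 0.26 and -0.30 ± 0.22 (adjusted p = 0.960 for both by limma), and Sdhb by -0.23 ± 0.21 (adjusted p = 0.963). The feeds overlapped for all 3 genes.

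The 3 genes Atp5g1, Atp5g2 and Atp5g3 encode the same mature c subunit of the proton-driven ring of the ATP synthase, with different targeting peptides. Atp5g3 read 15.50, 15.84 and 15.46 in feed B, 15.87, 15.77 and 15.73 in feed K and 15.68, 15.57 and 15.36 in feed G. Atp5g2 leaned the other way, with 0.25 ± 0.22 between feeds G and B (adjusted p = 0.899 by limma) against -0.06 ± 0.18 for Atp5g3 (adjusted p = 0.968). The difference between these genes was not tested. In complex IV, Cox6b, the general form of subunit 6b, differed by -0.29 ± 0.22 and Cox4i1 by -0.24 ± 0.19 between feeds G and K, while Cox7a2l gave 0.11 ± 0.20.

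Other genes of the pathway were taken from lists of symbols. Cytochrome c1 (Cyc1), a subunit of complex III outside the symbol rule, and cytochrome c (Cycs) were detected on all 9 arrays, with differences of -0.40 ± 0.25 and -0.67 ± 0.37 for feed G minus feed K. Of 23 assembly factors 15 had a probe and 12 of these were on every array, with a median SD of 0.26. Of the 15, 1 had an unadjusted F p below 0.05, beside 5.37% of all genes. BC024806, now Foxred1, a complex I assembly factor detected on 7 arrays, had an unadjusted F p of 0.00687 by limma (adjusted p = 0.729), with 6.57, 6.27 and 8.23 in feed B, 9.31, 8.83 and 9.25 in feed K and 8.74, 8.00 and 8.53 in feed G. Feed K lay above both other feeds in every mouse. Of all genes, 6.25% were higher without overlap in feed K than in feed B. For feed G below feed K the share was 7.34%. The values of B7 and B8 were near the lowest detected on those arrays, 6.04 and 5.65.

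Of 13 genes that control the expression of these subunits, 10 had a probe and 9 were tested, among them Nrf1, Gabpa, Yy1, Esrra and Tfam, and 0 of 9 had an unadjusted F p below 0.05 by limma. Of the carriers and regulators around the ATP synthase, Slc25a5, which exchanges ADP for ATP, its inhibitor Atpif1 (listed as Atpi) and the phosphate carrier Slc25a3 were detected on all 9 arrays and 0 of 3 passed the same limit, while Ucp2 was detected on 1 array. Of the 7 enterocyte markers 1 passed it, Slc5a1, the sodium glucose transporter, which had an unadjusted F p of 0.00894 (adjusted p = 0.729), with 15.03, 15.54 and 15.59 in feed B, 16.60, 16.49 and 16.49 in feed K and 16.68, 16.62 and 15.72 in feed G.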

How the data were processed

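Labels gave 3 mice for each of 3 feeds, with separate mice as replicates. RNA was labelled by oligo-dT priming and read by chemiluminescence. Per the file headers and the methods, the authors deposited for each array a signal intensity corrected for background and spatially normalized, with a signal-to-noise ratio score and a flag. They also deposited a table of the series whose 297108 values equal the assay-normalized signal intensity. The submitters' processing notes name RMA, with no role given.

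Flags above 5000 mark failed spots, which were removed. As in the study's methods, arrays were quantile normalized (arithmetic mean), log2 was taken and a gene's probes were averaged. limma 3.58.1 (R 4.3.3, lmFit and eBayes) was fitted over the 9652 genes detected (signal-to-noise ratio of 3 or more) on at least 3 arrays, with feed as the factor and no covariate, and Benjamini-Hochberg adjustment at 0.05. An exact permutation test of F used 280 splits. On simulated data of 9556 genes for feed G minus feed B, 0, 115 and 170 of 200 changed genes were recovered at log2 changes of 1, 2 and 3. Unchanged genes called beside them numbered 0, 9 and 13. Signals where the ratio is below 1 hold the spot's own standard deviation in place of a signal (119010 spots). Precision is limited by the number of arrays.

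No fold is given for a gene that was not above background on any array of a feed, since the brighter feed's mean also held arrays on which it was not detected.

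Genes named were, per pair of feeds, up to 4 in each direction by unadjusted p, the 3 smallest and 3 largest SDs, isoform families, complex II, the largest and smallest gap between probes, genes detected on no array, and listed genes with an unadjusted F p below 0.05. Others were named after their values were seen, and 1 gene that the rule names is not reported here. Members and lists were chosen with earlier results of these data known. Symbols are those of the array files and were updated by RefSeq accession or synonym for promoters and lists. Tried instead were scaling by the median, the values of the series table, a gene's brightest probe, failed spots kept, a floor at percentile 5, signals with a ratio below 1 left out, no filter, detection on all 9 arrays or at a ratio of 5, an intensity trend, an unmoderated test, the exact test, each array left out, and, added after seeing the data, each probe as a feature and centring on genes detected on all 9 arrays. Python 3.11.15 was used for the rest.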

Additional observations from a re-analysis of the deposited data

Results flagged for a closer look

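For 3 of the 40 named genes the gap between the outermost mouse and its neighbour was a larger share of the range than Dixon's 95% limit allows. Chance gives about 1 in 20, or 2 genes, for independent genes chosen without regard to their values. That rate need not hold here, since some genes, Atp5k among them, were named for their spread or p and all share the same arrays. Atp5k was 12.35 in B7 with the next mouse at 11.02, a share of 0.609 over 9 mice. Cox6c was 9.42 in B7 with the next at 7.97 (0.504), and Ndufab1 was 5.07 in B8 with the next at 5.95 (0.616, over 8 mice), and neither gene was above background on any array.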

How the results depend on the processing

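Over 23 other settings no named gene passed an adjusted p of 0.05, the smallest being 0.266, and 12 differences of single genes between feeds turned their sign. The number of genes at an unadjusted p below 0.05, 0 of 59 for every test, changed with the setting. With median scaling it became 2 (any feed), 6 (feed K minus feed B) and 8 (feed G minus feed B). The shares of all 9652 genes were then 11.2%, 12.7% and 18.6%. With the series table it became 1 (any feed) and 1 (G minus B), against 5.07% and 6.40% of all genes. Shares of all genes are given here for these 2 settings only. The counts for the other settings lack such a share here and are no result about the members. Without signals below a ratio of 1 the number became 2 (K minus B) and 2 (G minus B). Without a filter it became 1 (any feed), 1 (K minus B) and 1 (G minus B). It was 1 (G minus B) and 1 (G minus K) for genes detected on all 9 arrays, 1 (G minus K) at a ratio of 5, 2 (G minus B) and 1 (G minus K) with an intensity trend, 2, 1, 3 and 1 unmoderated (any feed, K minus B, G minus B, G minus K) and 2 (any feed) by the exact test. Leaving out 1 array gave 0 to 1 for any feed, 0 to 1 for K minus B, 0 to 3 for G minus B (2 without B8, 3 without B10, 1 without G11) and 0 to 1 for G minus K.

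The median difference became 0.40 (K minus B), 0.39 (G minus B) and -0.0094 (G minus K) with median scaling, which moved the median of all genes to 0.41, 0.53 and 0.11. It became 0.16 (G minus B) and -0.029 (G minus K) with the series table, and 0.21 (K minus B) and 0.10 (G minus B) without signals below a ratio of 1. Without 1 array it ran from -0.01 to 0.13, from -0.20 to -0.01 and from -0.26 to -0.13. Signs turned with median scaling for Ndufb4 (0.18) and Ndufaf1 (0.15) in K minus B and for Ndufb4 (0.16), Ndufa5 (0.12) and Uqcrb (0.30) in G minus B, with the series table for Ndufb4 (0.053) and Ndufaf1 (0.024) in K minus B and Uqcrb (0.046) in G minus B, with the brightest probe for Uqcr, G minus B (-0.058) and Uqcr, G minus K (-0.039), without signals below a ratio of 1 for Ndufs5 (1.16 in G minus K) and without K4 for Ndufb2 (-0.15 in G minus K, with 0.91 without G8 as the other end). The cause was not tested. The median SD (0.21 to 0.25 without 1 array) and the 53 genes detected on all arrays moved by less than the limits set. For the 59 tested genes the median SD was 0.24 by quantile normalization and 0.29 with median scaling. For all genes tested it was 0.42 and 0.54.

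No paired analysis was possible, since each feed had its own mice and a number shared between feeds pairs no samples. Dim probes have the least to say, since a signal-to-noise ratio under 3 leaves only a bound, and simulated differences of 1 on the log2 scale were not recovered in simulation.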

Other observations

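Subunits and assembly factors listed under older names, and so outside the symbol rule, were found by accession with 14 probes for 13 genes, 12 of the probes detected on all 9 arrays, with SDs over mice from 0.11 to 0.28 (median 0.18). Grim19 (now Ndufa13), a complex I subunit, read 14.87, 15.26 and 14.88 in feed B, 15.00, 14.85 and 15.18 in feed K and 14.82, 14.65 and 14.63 in feed G. It was 1 of 7 of the 12 probes that were lower in feed G than in feed K. Usmg5 (now Atp5md), a small subunit of the ATP synthase, leaned the other way, with 17.98, 17.86 and 18.20 in feed B, 18.63, 18.33 and 17.88 in feed K and 18.53, 18.38 and 18.46 in feed G. In B10 only 1 of the 12 was above its own mean and in B8 5, against 11 and 45 of 53 member genes. At an unadjusted p below 0.05, 0 of the 12 passed the limma F test fitted over probes. The testis form Cox7b2 (listed as 4930503B16Rik) was detected on no array, and Coxvib2 (now Cox6b2), also known as a testis form, on all 9. Of the 3 measured markers of exocrine pancreas, Amy2 was detected on 2 arrays and Pnlip and Trygn16 (now Prss1) on none, too few to be tested. They summed to 8.06 to 8.27 in feed B, 8.42 to 8.49 in feed K and 8.78 to 8.82 in feed G. These sums did not overlap between feeds, but they lie near background, and that of G11 lacks Trygn16, which has no value there.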
